A study of Mus musculus with 23 samples.

Results

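The MyoD family consists of Myf5, Myod1, Myog and Myf6, the basic helix-loop-helix transcription factors that carry cells into the skeletal muscle lineage and through differentiation. The genes were chosen by symbol, without use of their values. Each has 1 entry in the deposited expression table, which makes the family 4 of 21264 listed genes, followed here across 23 mouse libraries in 5 groups.

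Myf5 and MyoD, the product of Myod1, act first and commit cells to the muscle lineage. Myogenin, the product of Myog, drives committed myoblasts into fusion and contractile gene expression, and MRF4, the product of Myf6, acts late and is the family member most abundant in adult myofibres. The factors pair with E proteins and bind a short DNA motif called the E-box, while Notch signalling, through repressors of the Hes and Hey families, is known to hold muscle stem cells back from differentiation.

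All libraries came from iPax3 cells, mouse pluripotent stem cells in which the muscle lineage factor Pax3 can be induced to give myogenic progenitors. In culture there were 4 control libraries of WT genotype and 3 N1OE libraries, in which NICD1, the intracellular domain of Notch1 and its active form, was overexpressed. After engraftment, cells were re-isolated from muscle and gave 9 control (WT), 4 N1OE (NICD1 overexpression) and 3 N1KO (Notch1 KO) libraries. Their labels call them satellite cells (the resident stem cells of muscle) of donor origin. Every group, controls included, thus carries the Pax3 system. The labels do not state what drives NICD1, whether a line is 1 clone, the age of the host animals or whether replicates are separate cultures or animals, so that p-values cover the spread between these libraries and no more, and part of that spread may be technical. The cultured and the re-isolated cells were extracted and made into libraries by different kits, and setting and kit cannot be told apart.

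Expression was given as CPM, a gene's share of the reads its library holds in all listed genes, scaled to a common total. Library totals ran from 11637817 to 29154176 reads. Of the 9 re-isolated controls, 5 (replicates 1, 4, 7, 8 and 9) have GoF at the end of their column header, a suffix without explanation in the labels. These are called marked controls here, and the other 4 (replicates 2, 3, 5 and 6) unmarked. The headers of re-isolated N1OE and N1KO carry no such suffix. The number of genes with 1 read, divided by the number with 2 reads, ranged from 4.17 to 5.91 for marked controls, from 4.18 to 6.82 for re-isolated N1OE, from 1.08 to 1.50 for unmarked controls and from 1.25 to 1.40 for N1KO. By this measure re-isolated N1OE sat with the marked controls and N1KO with the unmarked ones. Its part in the results was not tested, and comparisons that use re-isolated controls are given for all 9 and within each set. Notch1 itself was at 297 to 370 CPM in cultured N1OE against 61.3 to 105 in the cultured controls, and at 98.1 to 257 in re-isolated N1OE against 15.6 to 52.6 in N1KO. Marked controls, at 14.9 to 88.9 CPM, overlapped N1KO and lay below every re-isolated N1OE library. Unmarked controls, at 136 to 174 CPM, lay above every N1KO library and overlapped N1OE. Notch1 level thus told N1KO from the unmarked controls and not from the marked ones. Pax7, which defines satellite cells, was at 11.5 to 154 CPM in the re-isolated libraries and below 1 CPM in culture, at 0 to 0.178 in the controls and 0.0508 to 0.891 in N1OE. Summed CPM of 5 pluripotency markers did not exceed 2.36 in any library.

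In GENCODE M21 (GRCm38/mm10) Myf5 (ENSMUSG00000000435, chromosome 10, 107482908 to 107486134) and Myf6 (ENSMUSG00000035923, chromosome 10, 107492853 to 107494737) lie on the minus strand, 6718 bases apart with 0 annotated genes between them. Myod1 (ENSMUSG00000009471) spans 46376474 to 46379099 of chromosome 7 and Myog (ENSMUSG00000026459) spans 134289989 to 134292548 of chromosome 1, both on the plus strand. Each gene has 3 exons, no gene overlaps any of them, and the merged exons hold 2083 bases in Myf5, 1861 in Myod1, 1495 in Myog and 1263 in Myf6. Promoter sequences from RefSeq (GRCm38.p6) were matched for 2 of the 4 members, the early factor Myf5 and the differentiation factor Myog. They are shown because these are the members matched; Myog led every cultured control within the family, and Myf5 led 2 of the 3 cultured N1OE libraries. The sequences are the 250 bases before each start in that table (chr10:107486135-107486384, minus strand, and chr1:134289754-134290003, plus strand), and capitals mark E-boxes.
Myf5: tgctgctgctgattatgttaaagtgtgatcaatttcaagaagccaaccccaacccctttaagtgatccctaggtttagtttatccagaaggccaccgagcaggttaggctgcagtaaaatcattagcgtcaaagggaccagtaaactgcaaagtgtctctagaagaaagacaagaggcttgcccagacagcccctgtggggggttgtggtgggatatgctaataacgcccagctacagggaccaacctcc
Myog: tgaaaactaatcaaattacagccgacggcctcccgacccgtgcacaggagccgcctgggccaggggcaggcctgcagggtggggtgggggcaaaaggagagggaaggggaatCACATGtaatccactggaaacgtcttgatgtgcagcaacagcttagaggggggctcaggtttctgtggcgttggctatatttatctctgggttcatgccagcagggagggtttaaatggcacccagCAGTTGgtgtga
The E-box was searched as CANNTG, which reads the same on both strands. Myog held 2, CACATG at 138 and CAGTTG at 12 bases before the RefSeq start, and Myf5 held 0. The Myog sequence ends at 134290003, past the GENCODE start of 134289989, so that its CAGTTG lies inside the GENCODE gene. Of 32851 RefSeq promoters of the same length 66.22% held at least 1. The core letters bound by RBPJ, the DNA-binding partner of NICD1, were searched as TGGGAA on both strands, were in neither sequence, and were in 21.59% of all promoters. A match is a description of letters and not a site in use.

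In cultured progenitors NICD1 overexpression went with lower Myod1 and lower Myog, while Myf5 did not pass the test. Myod1 was at 52.8, 21.5, 13.8 and 54.8 CPM in control replicates 1 to 4 and at 6.88, 3.21 and 3.55 CPM in N1OE replicates 1 to 3. All 3 N1OE libraries lay below all 4 controls. The change was -2.81 ± 0.55 on the log2 scale (limma, ± SE throughout, n = 3 and 4, adjusted p = 0.0241), or 7.03-fold lower.

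In the controls Myog stood at 953, 526, 129 and 502 CPM, and N1OE had 137, 20.6 and 21.4 CPM. N1OE replicates 2 and 3 were far below every control, but replicate 1 at 137 CPM was above control replicate 3 at 129, so the groups overlapped. The log2 change was -3.43 ± 0.87 (limma adjusted p = 0.0486), or 10.8-fold lower, and close to the threshold of 0.05.

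Control values of Myf5 were 178, 55.5, 100.7 and 24.9 CPM, and those of N1OE were 90.3, 152 and 173 CPM. The N1OE values lay within the upper part of the control range. The log2 difference of 0.92 ± 0.63 did not pass (limma adjusted p = 0.346, 95% interval -0.56 to 2.40). Myf6 was near the limit of detection in culture, at 0.460, 0.196, 0.232 and 1.19 CPM for control replicates 1 to 4 and 0.347, 0.0629 and 0 CPM for N1OE replicates 1 to 3. For the last library 3 reads, the limit that a count of 0 allows, stand for 0.152 CPM, by counting error only. Myf6 did not reach 1 CPM in 3 libraries and was not tested.

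Thus 2 of the 3 tested members passed, both lower, where 10.8% of all 12314 tested genes passed in either direction and 6.03% were lower. Groups did not overlap for 1 of the 3 (Myod1), against 34.8% of all tested genes. Both calls rest on few libraries. Without N1OE replicate 2 or 3 the adjusted p (limma) was 0.116 and 0.112 for Myod1 and 0.186 and 0.186 for Myog. Without N1OE replicate 1, which carries GoF in its header as all 4 cultured controls do and replicates 2 and 3 do not, it was 0.0534 for Myod1 and 0.0408 for Myog. In that fit the header suffix and NICD1 overexpression coincide and cannot be told apart. With replicate 1 kept they still largely coincide, and the part of the suffix in these differences was not tested. Leaving out control replicate 2 took Myod1 to 0.0502, and leaving out control replicate 1, 2 or 4 took Myog to 0.0732, 0.104 and 0.0660. With limma-voom on the recovered reads neither passed (0.0893 and 0.0623). N1OE replicates 2 and 3 were the closest pair of the group, at 3.31 in chi-square over degrees of freedom, against 29.7 and 35.0 for the pairs with replicate 1. Pairs of cultured controls were at 48.3 to 155. N1OE replicates 2 and 3 differed by more than sampling noise and were kept as separate samples. That does not show that they are separate cultures. If they are not, the p-values of this comparison overstate the evidence.

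**Figure D1:**
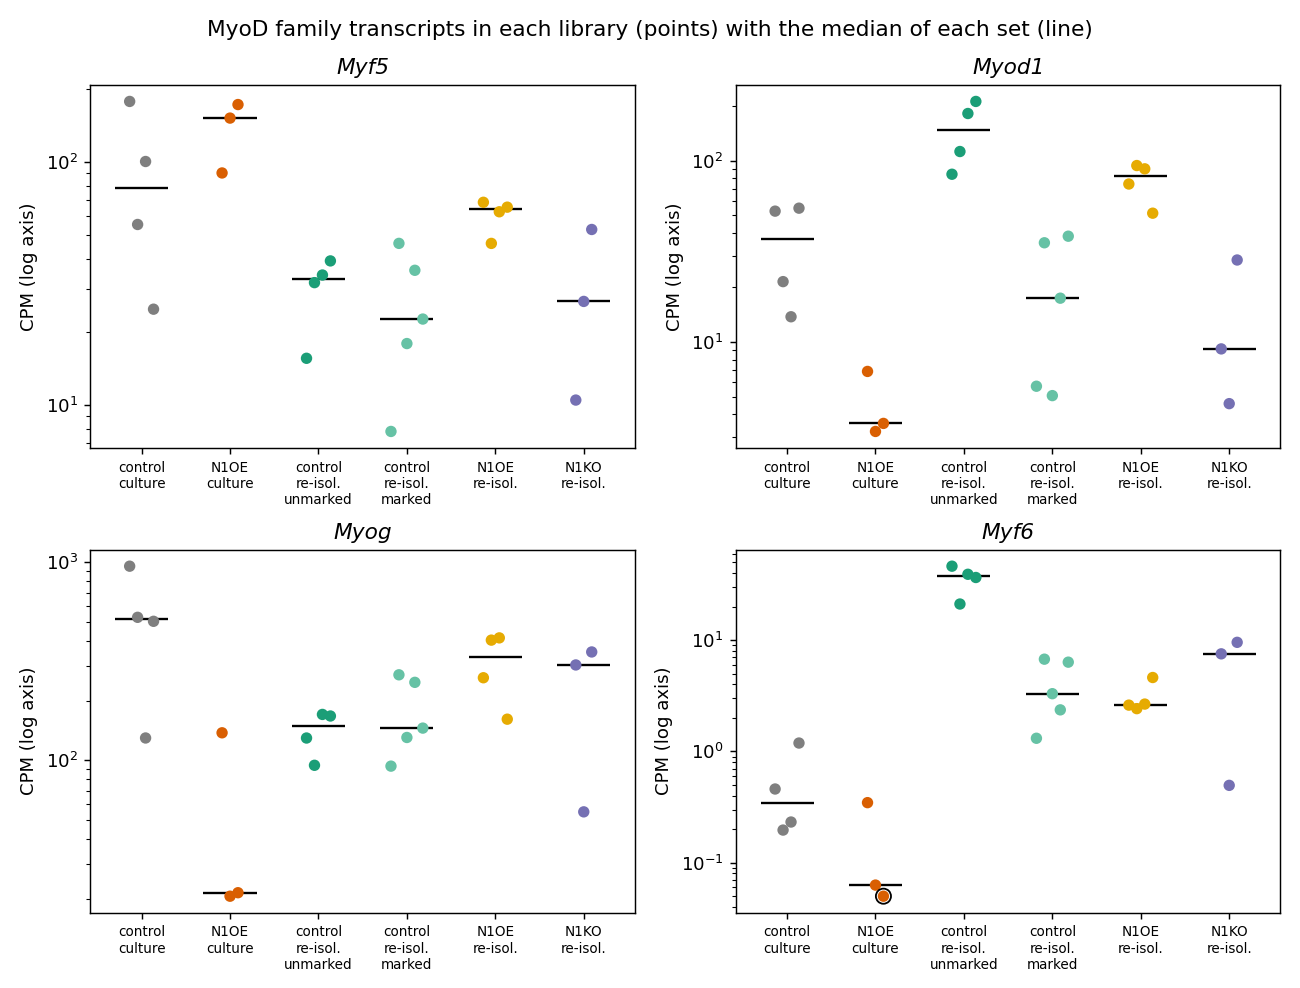
CPM (log axis) of each member in each library, by set, with unmarked and marked re-isolated controls apart. Points are libraries and lines are medians, and the ringed Myf6 point is the cultured N1OE library with 0 reads, drawn at the foot of the axis. Cultured N1OE lies below all cultured controls for Myod1, and unmarked controls lie above all marked ones for Myod1 and Myf6.

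The composition of the family within a library does not depend on scaling between libraries. Levels of different genes were compared per exon length, as reads per exon base. In the cultured controls Myog led, with 60.7% to 90.2% of the summed length-scaled reads of the 4 genes, and Myf5 held 3.16% to 33.9%. In N1OE replicates 2 and 3 Myf5 led with 82.4% and 83.6%, and Myog held 15.6% and 14.5%. N1OE replicate 1 was still led by Myog, at 66% with Myf5 at 31.1%. Per exon length, Myf5 was at 0.405 to 6.53 times the level of Myod1 in the cultured controls, and at 11.7, 42.3 and 43.4 times in N1OE, without overlap.

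**Figure D2:**
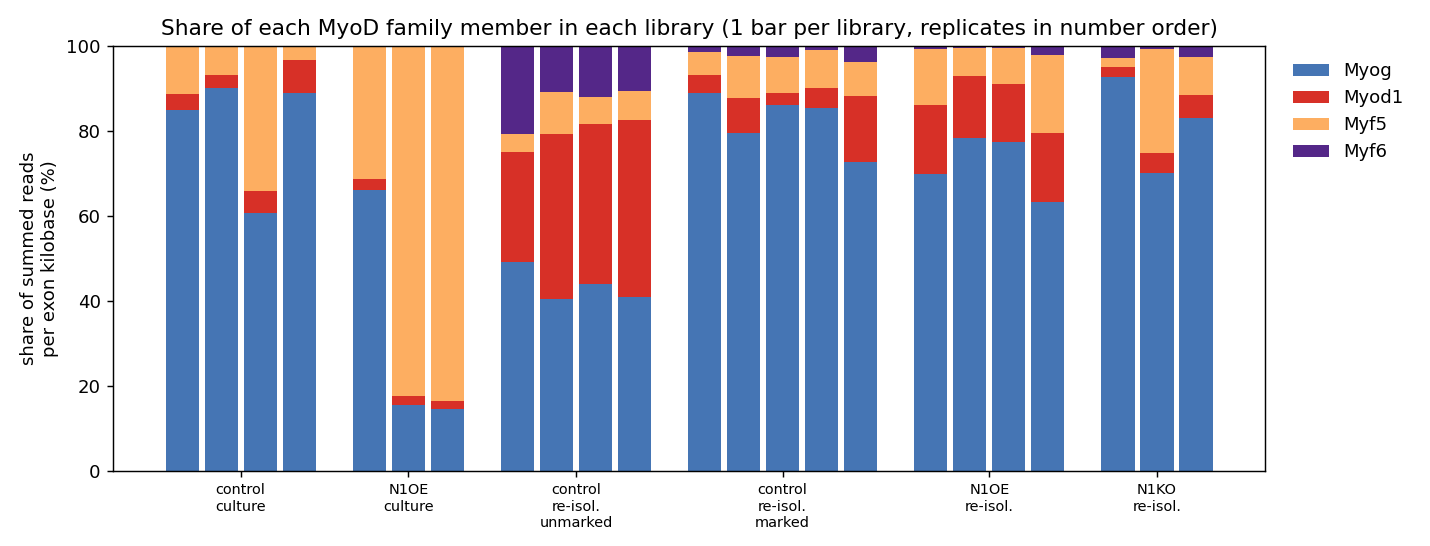
Share of each member (%) in the summed length-scaled reads of the 4 genes, with 1 stacked bar per library. Myog led every library except cultured N1OE replicates 2 and 3, which Myf5 led, and 1 unmarked re-isolated control, in which Myod1 held 41.7%.

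Genes that act with, against or downstream of the family were followed through 3 lists. Of 15 tested partners and activators (16 listed) 4 rose and 1 fell in cultured N1OE, with a median log2 difference of 0.05 beside 0.07 over all tested genes. Eya1, a transcriptional coactivator, and Tcf3, an E protein that pairs with the family, rose by 0.87 and 0.47 in log2. Rbm24, an RNA-binding protein of muscle splicing, fell by 2.45. Of 14 tested antagonists (17 listed) 5 rose and 1 fell, with a median of -0.04. Hey1 and Heyl, Hairy-related repressors downstream of Notch, rose by 4.73 and 5.48, and Id4, which sequesters E proteins, by 1.24. The other two risers, named after their values were seen, were Msc (4.24), a bHLH repressor that competes with MyoD, and Hes1 (1.37). The deacetylase Hdac4 fell by 0.82. Of 24 target genes 1 rose and 8 fell, with a median of -2.26. Des (desmin, -3.66), Myl1 (a myosin light chain, -4.91) and Acta1 (skeletal actin, -4.92) were among those that fell, and the adhesion molecule Cdh15, also a satellite cell marker, rose by 1.51. The number of targets that fell was 0 without N1OE replicate 2 or 3, 1 without control replicate 2, 2 without control replicate 1 or 4, 4 without N1OE replicate 1 and 13 without control replicate 3. Over the same sets of libraries antagonists that rose numbered 1 to 5 and partners that rose 0 to 4. Acta1 and Ckm are both targets and myofibre markers. Summed CPM of 7 mature myofibre markers was 8.37 to 51.8 in cultured N1OE and 88.3 to 1580 in the controls. That of 8 satellite cell markers was 1163 to 1220 against 465.5 to 1013. The satellite cell sum was carried mainly by Cdh15 (513 to 599 against 123 to 271 CPM), and Calcr and Itga7 also lay above every control. By median, Chrdl2 went the other way (1.93 against 16.6 CPM) and Megf10 was not higher (229 against 237 CPM). Of the myofibre markers Pvalb was at 0 reads in all 3 N1OE libraries and the other 6 were not. The part of these markers in the lower Myod1 and Myog was not tested. In bulk libraries fewer cells of a type and less RNA per cell cannot be told apart.

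The marked and unmarked re-isolated controls, which share genotype and setting in the labels, differed in Myod1 and Myf6 and not detectably in Myf5 and Myog. Myod1 was at 5.70, 35.3, 5.06, 17.5 and 38.4 CPM in marked replicates 1, 4, 7, 8 and 9, and at 84.3, 113, 182 and 213 CPM in unmarked replicates 2, 3, 5 and 6. The highest marked control lay at less than the lowest unmarked one. The log2 difference, marked minus unmarked, was -3.23 ± 0.60 (limma adjusted p = 0.00280), or 9.39-fold lower in the marked controls.

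Myf6 was at 1.31, 6.75, 3.30, 2.36 and 6.34 CPM in the marked and at 46.2, 21.1, 39.1 and 36.6 CPM in the unmarked controls, again without overlap. The log2 difference was -3.32 ± 0.47 (limma adjusted p = 0.000717), lower in the marked controls. Myf5 was at 7.81, 46.4, 18.0, 35.9 and 22.6 CPM in the marked and 15.6, 32.0, 34.4 and 39.3 CPM in the unmarked controls, with the unmarked values inside the marked range. Myog was at 93.3, 270, 130, 247 and 145 CPM against 129, 94.2, 170 and 167 CPM, also overlapping. The log2 differences were -0.37 (95% interval -1.39 to 0.65) for Myf5 and 0.26 (-0.44 to 0.97) for Myog. Their adjusted p in limma was 0.584 and 0.576.

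So 2 of 4 members passed, both lower in the marked controls, beside 27.6% of all tested genes in either direction and 14% lower. Groups did not overlap for those 2, against 23.9% of all genes. In the descriptions replicate 7 carries no suffix, and by them it counts as an unmarked control. With the mark so taken, the differences were -1.90 and -2.64 and neither passed (limma adjusted p = 0.320 for Myod1 and 0.250 for Myf6). Of 24 target genes 13 were lower and 1 higher in the marked controls (9 to 14 lower with single libraries left out), with a median of -1.43 beside -0.005 over all genes, among them Tnnt1 (-4.48), Ckm (-2.62) and Acta1 (-1.89), which encode a troponin, muscle creatine kinase and skeletal actin, and the fusion protein gene Mymk (-2.12). Of 16 partners and activators 5 were lower and 1 higher, with a median of -0.46, among them Smarcd3 (-1.38), a chromatin remodelling subunit, and Eya2 (2.08). No partner was lower without control replicate 3, 1 without replicate 5 or 7 and 2 without replicate 2, 6 or 8, and 3 were higher without replicate 1. Of 14 antagonists 9 were lower and 1 higher, with a median of -1.78. They included the inhibitor of differentiation genes Id2 (-2.79) and Id1 (-2.34), the zinc finger repressor Snai1 (-2.22) and Mdfi (-1.84), the MyoD family inhibitor. Mature myofibre markers summed to 526 to 1404 CPM in the marked and 1872 to 3846 in the unmarked controls, and summed fibro-adipogenic markers, those of the connective tissue cells of muscle, 1351 to 7858 against 155 to 888 CPM. The myofibre sum was carried by Acta1 (352 to 1079 against 1599 to 3464 CPM), and Myh1, a fast myosin heavy chain on the same list, went the other way (122 to 218 against 31.6 to 88.3 CPM). Myh2 of that list also had the higher median in the marked controls (18.9 against 5.17 CPM). Satellite cell markers summed to 1351 to 2044 against 2220 to 2808 CPM. That sum was carried by Cdh15 (120 to 561 against 711 to 1174 CPM) and Sdc4 (77.5 to 229 against 475 to 772 CPM). Vcam1 and Megf10 of the same list had the higher median in the marked controls (743.5 against 549 and 104.5 against 66.7 CPM). Every marker of these 3 lists had reads in at least 1 library of each set, and the part of these cell populations in the difference was not tested.

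Against all 9 re-isolated controls no member passed in re-isolated N1OE (0 of 4, beside 7.06% of all tested genes, with 0 of 4 without overlap beside 4.8%), and limma-voom called 0 as well. Myf5 and Myog, 2 of 4, had an unadjusted p under 0.05 in limma, as did 22.7% of all tested genes. Over the 9 controls the lowest, median and highest values were 7.81, 32.0 and 46.4 CPM for Myf5, 5.06, 38.4 and 213 for Myod1, 93.3, 145 and 270 for Myog, and 1.31, 6.75 and 46.2 for Myf6. In N1OE replicates 1 to 4 Myf5 was at 68.4, 46.4, 62.6 and 65.3 CPM and Myod1 at 74.5, 94.2, 90.3 and 51.4 CPM. Myf5 in 3 N1OE libraries exceeded every control and in replicate 2 lay just under the highest of them. Myod1 in all 4 lay above every marked control, and 2 of the 4 overlapped the unmarked ones. Myog was at 261, 403, 414 and 161 CPM in N1OE, with 2 libraries above every control. Myf6 was at 2.61, 2.42, 2.66 and 4.62 CPM, within the marked and below the unmarked controls. The log2 differences were 1.27 ± 0.43 for Myf5 (limma adjusted p = 0.0796) and 0.94 ± 0.42 for Myog (0.183). They were 0.92 ± 0.82 for Myod1 (0.538) and -1.66 ± 0.89 for Myf6 (0.275). Of the lists, 1 of 16 partners (Pax3, the gene that is inducible in these cells, by 2.27), 1 of 16 antagonists (Msc, by 1.91) and 2 of 24 targets (Musk by 1.20 and Chrnb1 by 1.15) rose and 0 fell, with medians of 0.21, 0.49 and -0.21 beside 0.06 over all genes. With N1OE replicate 1, 2 or 3 or control replicate 9 left out no target was called, and with N1OE replicate 4 or control replicate 1, 2, 3 or 7 left out only 1 was. Without control replicate 4, 2 antagonists rose. Summed endothelial markers were 39.3 to 84.6 CPM in N1OE and 37.8 to 116 in N1KO. Both sums lay above all 9 controls at 4.86 to 35.8. Of that list Kdr lay above every control in both groups. In N1OE, Pecam1, Tek and Emcn overlapped the controls, as did Cdh5 (0.985 to 5.84 against 0 to 18.6 CPM). In N1KO, Cdh5 and Tek overlapped them. The part of these markers was not tested.

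Within the header sets the picture for Myod1 and Myf6 depended on which controls were used. Against the marked controls Myod1 was higher in all 4 N1OE libraries, by 2.36 ± 0.58 in log2 or 5.12-fold (limma adjusted p = 0.00961). It passed with each library left out in turn (0.00212 to 0.0477). It was the 1 of 4 members to pass, beside 11.7% of all tested genes in either direction and 6.26% higher, and the only member whose groups did not overlap (12% of all genes). Against the unmarked controls Myod1 was not higher, with a log2 difference of -0.87 ± 0.44 (adjusted p = 0.170). There Myf6 differed by -3.51 ± 0.64, or 11.4-fold lower in N1OE (limma adjusted p = 0.000909), beside 19.5% of genes called in either direction and 10.1% lower. Groups did not overlap for 2 of 4 members, Myf6 and Myf5, against 22.2% of all genes. Against the marked controls the log2 difference in Myf6 was -0.19 ± 0.72 (95% interval -1.68 to 1.31).

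The direction for Myf5 and Myog was the same against either set. Myf5 was higher by 1.44 ± 0.47 against the marked (limma adjusted p = 0.0520) and by 1.07 ± 0.42 against the unmarked controls (0.0766). The first value lay at the threshold: Myf5 passed there with limma-voom (0.0494), with median ratio scaling (0.0436), with log2(CPM + 1) (0.0420), and without control replicate 4 (0.0177) or 8 (0.0329). Myog was higher by 0.82 ± 0.47 (0.302) and 1.08 ± 0.47 (0.105) and passed against neither. Among related genes 4 of 16 antagonists rose and 0 fell against the marked controls, namely Heyl (2.30), Hey1 (2.07), Msc (1.87) and Id4 (1.86), with a median of 0.74 beside 0.05 over all genes. Without control replicate 4, 7 rose. Against the unmarked controls 2 antagonists rose, of which Msc (1.95) was also called against the marked ones, while Id2 (-2.74), Snai1 (-2.02), Id1 (-1.43) and 2 others fell. Only 1 antagonist rose there without any 1 of the 4 controls or without N1OE replicate 2 or 3, and 3 rose without N1OE replicate 1. Of 24 targets 2 rose and 0 fell against the marked controls, Musk (1.25) and Chrnb1 (1.24) of the neuromuscular junction, with a median of 0.37. None of the 24 was called without control replicate 1 or 7 or N1OE replicate 2 or 3, 1 without N1OE replicate 1 or 4, 3 without control replicate 9 and 4 without control replicate 4. Against the unmarked controls 3 rose and 10 fell, with a median of -1.10 beside 0.08. The falls numbered 4 without control replicate 5 or 6 or N1OE replicate 2, 5 without control replicate 2 or N1OE replicate 1 or 4, 11 without control replicate 3 and 12 without N1OE replicate 3. The rises numbered 0 without N1OE replicate 3, and 1 without control replicate 2 or 3 or N1OE replicate 1 or 2. Summed fibro-adipogenic markers were 537 to 1131 CPM in N1OE, below all marked controls, and mature myofibre markers 789 to 1777 CPM, below all unmarked ones. The fibro-adipogenic sum was carried by Dcn (127 to 233 CPM in N1OE, 640 to 7367 in the marked controls), and Dpt of the same list had the higher median in N1OE (658 against 303 CPM). Their part in these differences was not tested.

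In N1KO the members likewise did not pass against all 9 controls, with limma or limma-voom (0 of 4, beside 0.657% of genes in limma). Of the 4, 1 had an unadjusted p under 0.05 in limma, Myod1, as did 11.6% of all tested genes. No gene of the 3 lists passed either (unadjusted p under 0.05 in limma for 3 of 16 partners, 2 of 16 antagonists and 5 of 24 targets), and their medians were -0.12, 0.33 and -0.61 beside 0.01 over all genes. With single libraries left out at most 1 target was called in either direction. Myod1 was at 9.16, 4.57 and 28.4 CPM in N1KO replicates 1 to 3, all below every unmarked control and inside or below the range of the marked ones. The log2 difference was -1.91 ± 0.91 against all controls (limma adjusted p = 0.430), -0.47 ± 0.63 against the marked (0.727) and -3.70 ± 0.48 against the unmarked (8.08e-05), the last being 13-fold lower.

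Myf6 in N1KO was at 7.53, 0.496 and 9.56 CPM, also below every unmarked control. It was 10.1-fold lower than in those (log2 -3.33 ± 0.69, limma adjusted p = 0.00461) and differed from the marked controls by -0.01 ± 0.78 (0.998). Myf5 was at 10.5, 26.8 and 52.9 CPM and Myog at 302, 54.8 and 352 CPM. Both overlapped both control sets, and their log2 differences from all controls were -0.01 (95% interval -1.01 to 0.98) and 0.25 (-0.71 to 1.22). Against the unmarked controls 2 of 4 members thus passed, both lower, beside 7.29% of all tested genes (3.41% lower), and the groups did not overlap for the same 2 against 21.8%. Against the marked controls 0 of 4 passed (3.92% of genes) with limma or limma-voom, and 0 of 4 had an unadjusted p under 0.05 in limma, beside 20.4% of genes. The drop of Myod1 and Myf6 against the unmarked controls passed without each library in turn (limma adjusted p 1.08e-06 to 0.000377 and 0.000461 to 0.0200). Of 24 targets 7 fell and 1 rose against the unmarked controls, and the median was -1.23 beside -0.004 over all genes. The falls ranged from 5 with N1KO replicate 2 or control replicate 5 left out to 10 with N1KO replicate 3 left out. Among them were Cdh15 (-2.85), Chrnd (an acetylcholine receptor subunit, -2.52) and Tnnt1 (-2.08), and the cell cycle inhibitor Cdkn1c was higher by 7.57. The Notch effectors Hey1 and Heyl fell by 2.82 and 2.24 there, and Twist1, a mesenchymal bHLH repressor of MyoD, rose by 3.75; the call on Twist1 was lost with any single library left out. Against the marked controls 6 of 16 antagonists rose and 0 fell (3 to 6 with single libraries left out, 3 without N1KO replicate 2 or 3), led by Id2 (2.15), Snai1 (2.06), Id1 (2.04) and Id4 (2.78), with a median of 0.87 beside 0.02. Summed fibro-adipogenic markers were 3577 to 9507 CPM in N1KO, above all unmarked controls at 155 to 888. Satellite cell markers summed to 1197 to 2175 CPM in N1KO, below the unmarked range of 2220 to 2808. Of that list Pax7 overlapped (19.9 to 153 against 51.8 to 113 CPM), and Vcam1, an adhesion molecule, was higher in N1KO (692 to 760 against 495 to 598 CPM). What part this has in the lower Myod1 and Myf6 was not tested.

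**Figure D3:**
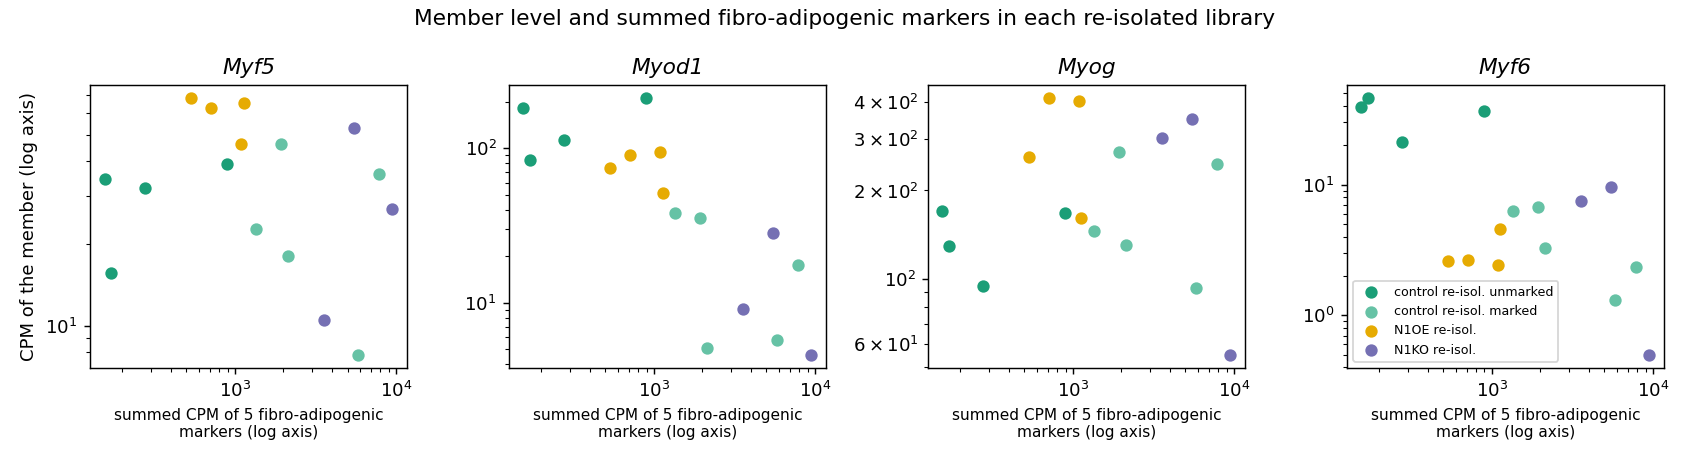
CPM of each member (log axis) against the summed CPM of 5 fibro-adipogenic markers (log axis) in the 16 re-isolated libraries, coloured by set. Unmarked controls (155 to 888 CPM of markers) carry the highest Myf6 and the highest median of Myod1. For Myod1, N1OE replicates 2 and 3 (94.2 and 90.3 CPM) lie above unmarked replicate 2 (84.3 CPM). The lowest Myod1 library is in N1KO (3577 to 9507 CPM of markers), at 4.57 CPM, close to marked replicate 7 at 5.06 CPM.

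Between re-isolated N1OE and N1KO the largest log2 difference among the 4 members was that of Myod1. All 4 N1OE libraries, at 51.4 to 94.2 CPM, lay above all 3 N1KO libraries, at 4.57 to 28.4 CPM. The log2 difference of 2.83 ± 1.05, or 7.09-fold, did not pass in the fit that shares its spread with the 9 controls (limma adjusted p = 0.106), and passed when the 2 groups were fitted alone (0.000352). The share of all genes that passed with the 2 groups alone is not given here, so that call has no background beside it. Myf5 differed in the shared fit by 1.28 ± 0.55 (0.161), Myog by 0.68 ± 0.53 (0.455) and Myf6 by -0.18 ± 1.13 (0.941). In the fit shared with the 9 controls no member passed with limma or limma-voom (0 of 4, beside 7.35% of genes). There 2 of 4 had an unadjusted p under 0.05 in limma, beside 23.6% of genes. Groups did not overlap for 1 of 4, against 23.3% of genes. Between these groups 3 of 16 antagonists were higher in N1OE (Msc by 2.42, Hey1 by 2.83, Heyl by 2.68) and Twist1 was lower (-3.72). Without N1KO replicate 1 none of the 16 was called, without N1KO replicate 2 or N1OE replicate 2 only 1 was higher, and without N1OE replicate 1, 3 or 4 there were 2. With 1 library left out an antagonist was called lower only without N1OE replicate 1 or 4. Of 24 targets 2 were higher in N1OE (Musk by 1.84, Chrnb1 by 1.50) and Cdkn1a, a cell cycle inhibitor, was lower (-1.67), with a median of 0.19 beside 0.07. The targets called higher numbered 0 without N1KO replicate 1, 1 without N1KO replicate 2 or N1OE replicate 1, 2 or 3, and 5 without N1KO replicate 3. The call on a lower target was lost without N1KO replicate 1. No partner was called, with a median of 0.23, at 5 of 16 with an unadjusted p under 0.05 in limma. The 1-read to 2-read ratio and the summed fibro-adipogenic, satellite cell (2239 to 3345 CPM in N1OE, 1197 to 2175 in N1KO) and macrophage markers (11.1 to 48.5 and 87.1 to 182 CPM) also separated these groups. Not every marker did. Of the satellite cell list Sdc4 had the higher median in N1KO (247 against 219 CPM), and Pax7, Cdh15 and Vcam1 overlapped. Dpt of the fibro-adipogenic list (402 to 929 CPM in N1OE, 473 to 911 in N1KO) and Adgre1 of the macrophage list overlapped too. The part of the ratio and of these markers was not tested.

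Within the re-isolated libraries the differentiation factor Myog was set against the determination factor Myod1 as a ratio of levels per exon length. It ranged from 0.978 to 1.91 for unmarked controls, from 3.90 to 5.71 for N1OE, from 4.71 to 32.0 for marked controls and from 14.9 to 41.1 for N1KO. The unmarked controls overlapped no other set, while N1OE overlapped the marked controls, and these overlapped N1KO. The ratio of Myf6 to Myod1 was lowest in N1OE, at 0.0379 to 0.132 per exon length. It ranged from 0.253 to 0.808 for unmarked controls, from 0.200 to 0.962 for marked controls and from 0.160 to 1.21 for N1KO, all above the highest N1OE library. No test was made on these ratios.

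The N1OE effect differed between settings for Myog. Re-isolated, Myog in N1OE was 0.94 higher than in control, and in culture it differed by -3.43, on the log2 scale. The difference between the effects was 4.37 ± 0.84 (limma over all 23 libraries, adjusted p = 0.00327). It was 4.25 with the marked controls alone (0.00562, where 6.76% of genes passed) and 4.52 with the unmarked (0.00402, where 10.8% passed), and it passed without each library in turn (0.000793 to 0.0226). For Myod1 it was 3.73 ± 1.26 and did not pass (0.115), but was 5.17 ± 0.91 with the marked controls (0.00105) and 1.94 ± 0.73 with the unmarked (0.0897). Myf5 and Myf6 had differences of 0.35 ± 0.75 (0.889) and 0.09 ± 1.43 (0.988). Thus 1 of 4 members passed, beside 3.27% of all genes in either direction and 2.36% with a higher effect. The kit would cancel only if it acted alike on both groups of a setting.

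**Figure D4:**
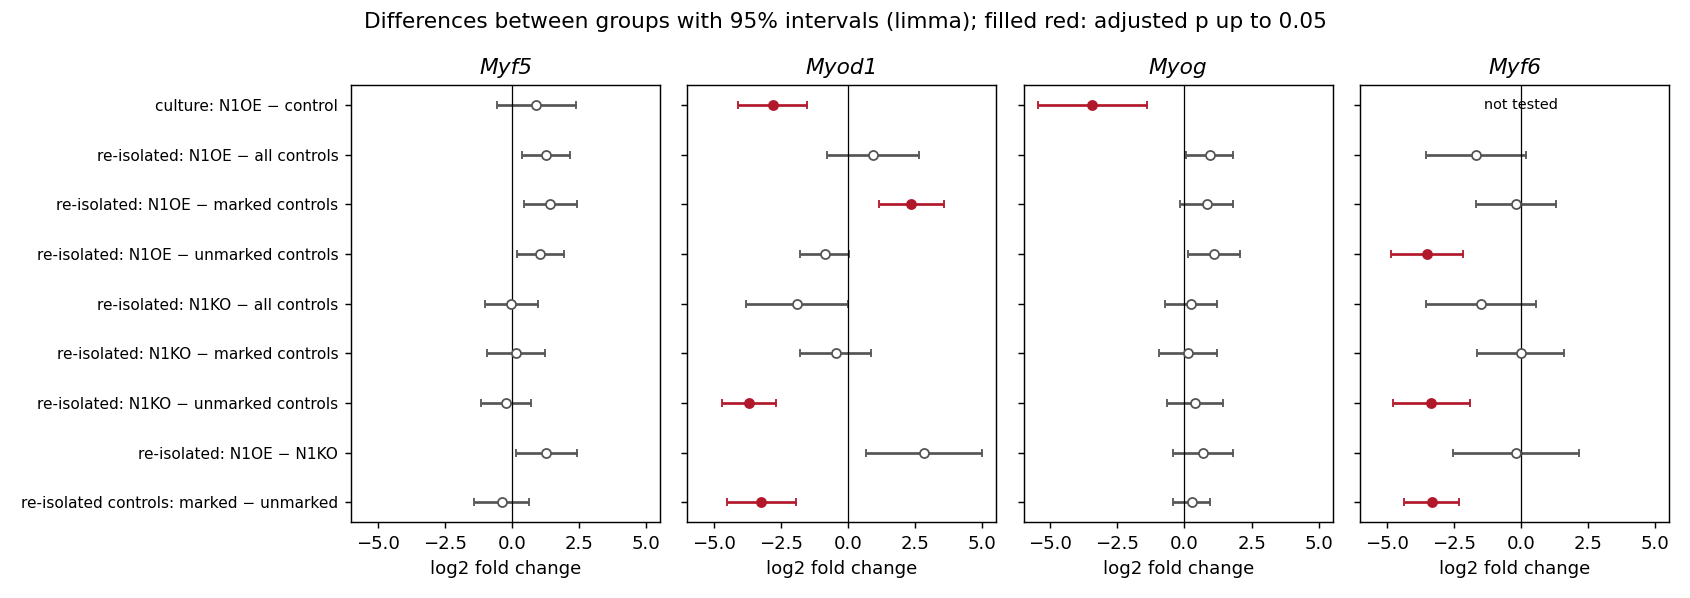
Log2 fold change of each member in each comparison, with the 95% interval from limma as bars and a filled red point where the adjusted p was 0.05 or less. Myod1 in re-isolated N1OE lies at 2.36 against marked and at -0.87 against unmarked controls.

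Myf6 was higher, and Myf5 and Myog were lower, in re-isolated than in cultured controls. These groups also differ in kit, so that setting and kit cannot be told apart in any value of this comparison. Median CPM in the re-isolated controls was 6.75 for Myf6 against 0.346 in culture, with all 9 libraries above all 4. Myf6 was 4.37 ± 0.91 higher in log2 (limma adjusted p = 0.000805), or 20.7-fold. Myf5 and Myog changed by -1.50 ± 0.50 (0.0178) and -1.49 ± 0.42 (0.00683), with overlap between the groups. So 3 of 4 members passed, beside 58.1% of all genes (24.1% higher and 33.9% lower), and 1 of 4 did not overlap, beside 38.9%. The median over all genes in this comparison was -0.23, and 0.02 after median ratio scaling, a shift of 0.25 against which these values are to be read. The change in Myf5 did not pass without cultured control replicate 1 (-1.06, 0.0958) or 3 (-1.33, 0.0631), nor in the unmarked controls alone (-1.30, 0.0551), and passed in the marked ones alone (-1.67, 0.0350). That in Myf6 did not pass with limma-voom (4.41, 0.0886). In the unmarked controls alone Myf6 was 6.21 higher (5.37e-06) and Myod1 2.18 higher (0.00203), where 65.8% of genes passed. In the marked controls alone Myf6 was 2.89 higher (0.00308, where 62.8% of genes passed), while the difference in Myod1 was -1.05 and did not pass (0.207). Of 16 partners and activators 2 were higher and 10 lower after engraftment, with a median of -0.79, and the coactivator Ep300 (-3.10), Rbm24 (-3.58) and the MADS-box factor Mef2d (-2.62) among those lower. Without cultured control replicate 1, 6 partners were lower. Of 15 antagonists 9 were higher and 1 lower after engraftment, with a median of 0.99 and Msc 10.18, Id3 3.21, Hes1 3.33 and Hey1 4.41 higher. Of 24 targets 5 were higher and 8 lower, with a median of -0.53, among them Musk (4.88) and the embryonic myosin heavy chain Myh3 (-5.47). Without cultured control replicate 1 or 4, 5 targets were lower, and without cultured control replicate 2, 3 or 4 only 3 were higher.

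By median CPM, Myf5 was ordered from cultured N1OE (152) through cultured control (78.1), re-isolated N1OE (64.0), unmarked control (33.2) and N1KO (26.8) to marked control (22.6). Between neighbours in that order, only re-isolated N1OE and the unmarked controls had ranges that did not overlap. Myod1 ran from unmarked control (147) through re-isolated N1OE (82.4), cultured control (37.1), marked control (17.5) and N1KO (9.16) to cultured N1OE (3.55), with every pair of neighbours overlapping. The order for Myog was cultured control (514), re-isolated N1OE (332), N1KO (302), unmarked control (148), marked control (145) and cultured N1OE (21.4). Again each pair of neighbours overlapped. Myf6 ran from unmarked control (37.8), which overlapped no other set, through N1KO (7.53), marked control (3.30) and re-isolated N1OE (2.64) to cultured control (0.346) and cultured N1OE (0.0629). The cultured controls lay below the ranges of re-isolated N1OE and the marked controls, and all other neighbours overlapped.

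The genes whose profiles were nearest to each member were found among 14174 expressed genes by the root mean square difference of log2 CPM, centred on each gene's mean over the 23 libraries. They share libraries and depth with the member, and the values are descriptions. For Myf5, whose own spread was 1.17, they were Cyria (0.55), Stmn1 (0.56) and Timeless (0.57), the last 2 known from microtubule dynamics and DNA replication. For Myod1 (spread 1.84) they were Jsrp1 (0.68), Fhad1 (0.70) and Atp2a1 (0.87), of which the first and the last encode proteins of the sarcoplasmic reticulum of muscle. For Myog (spread 1.32) they were Ablim3 (0.78), Col26a1 (0.80) and Myom2 (0.83), a protein of the sarcomere's M-band. For Myf6 (spread 2.62) the nearest were at a greater distance, Iigp1 (1.06), an interferon-induced GTPase, Casq1 (1.08), the calcium-binding protein of the sarcoplasmic reticulum, and Adm (1.15), which encodes adrenomedullin.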

How the data were processed

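RNA was sequenced in 23 mouse libraries, grouped by their titles. The deposited table holds log2 CPM values to which the authors added a small prior (its lowest, -4.19 in log2, is a gene with 0 reads). The submitters' processing notes name Trimmomatic 0.33, FastQC, featureCounts, edgeR and mm10; the aligner and annotation are not given in the sources used here. Per the labels' protocols, Trizol and a TruSeq stranded mRNA kit served for the cultured cells, and Buffer RLT, beads, a NEBNext low-input kit and Nextera XT for the re-isolated ones. Steps between values gave back whole reads in every library (100% of values within 0.05 reads), so CPM is per library total. A count of 0 allows up to 3 reads, by counting error only.

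limma 3.58.1 (R 4.3.3; eBayes with a trend, two-sided) was run on the log2 values as deposited, for genes that reached 1 CPM in 3 or more libraries of the fit. Benjamini-Hochberg adjustment ran over all tested genes, and an adjusted p of 0.05 or less was called. Separate fits were made of the cultured groups, of the 3 re-isolated groups, of the 2 control sets, of controls in both settings and, for the difference between N1OE effects, of all 5 groups. The fits were tested on simulated data. The members, lists and tests were chosen with earlier results of these data known. A list, where described, is given by its counts and up to 4 members of smallest p, and each member by its 3 nearest profiles; other genes named are marked as such, and 1 gene that the rule takes is not reported here. Alternatives were other filters, log2(CPM + 1), median ratio scaling, limma-voom, a replicate block, single control sets and leaving out each library. Those within a control set, for the lists, and for the control sets against culture were added after seeing the data. Python 3.11.15 served for sequences and figures.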

Additional observations from a re-analysis of the deposited data

Results flagged for a closer look

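Myf6 in re-isolated N1OE replicate 4 was at 2.22 on the log2 CPM scale (4.62 CPM), far above the other 3 libraries of its group at 2.42 to 2.66 CPM. Its gap to the nearest of them exceeded the 95% limit of Dixon's test. Of 12 combinations of member and group so tested this was the 1 that did, and chance gives about 1 in 20.

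The N1OE effect on Myog differed between the re-isolated cells and culture by 4.37 in log2 (limma, all 23 libraries, adjusted p = 0.00327), the difference itself being tested. Myog was lower in cultured N1OE and higher in re-isolated N1OE, where that group's own difference did not pass.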

How the results depend on the processing

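Of 523 values recomputed under alternatives, 465 kept direction and side of the threshold, 30 changed direction, 20 no longer passed and 8 newly passed. Values here are log2 differences, and the cause of a change was not tested. In culture Myog was -3.43 without a filter (adjusted p = 0.0520) and with at least 5 CPM (0.0513), and -3.39 with limma-voom; Myod1 was -2.79 with limma-voom. Leaving out single libraries gave -3.19 to -2.53 for Myod1 and -4.33 to -2.97 for Myog. Marked against unmarked controls by description gave -1.90 for Myod1 and -2.64 for Myf6, and leaving out libraries gave -0.66 to 0.0019 for Myf5. For re-isolated N1OE against control, Myod1 was 2.36 with marked and -0.87 with unmarked controls, and Myf6 -3.51 with unmarked ones. For N1KO against control, Myf5 was 0.015 with median ratio scaling, 0.010 with limma-voom, 0.15 with marked controls and -0.56 to 0.60 with libraries left out, and Myog -0.23 to 1.11. Against unmarked controls Myod1 was -3.70 and Myf6 -3.33. N1OE against N1KO in 2 groups alone gave 2.83 for Myod1, and leaving out libraries gave -1.50 to 0.57 for Myf6 and -0.17 to 1.17 for Myog. The difference between N1OE effects was 5.17 for Myod1 with marked controls. For Myf6 it was -1.75 with unmarked controls, -1.11 with log2(CPM + 1), -0.030 with median ratio scaling and -0.57 to 0.87 with libraries left out, and for Myf5 -0.092 to 0.85. Re-isolated against cultured control gave 4.41 for Myf6 with limma-voom, -2.0 to -1.06 for Myf5 with libraries left out and -1.30 with unmarked controls, and -1.05 and 2.18 for Myod1 with marked and unmarked controls. Within control sets, N1KO against marked controls gave Myf6 0.044 with limma-voom, 0.040 with median ratio scaling and 0.18 with log2(CPM + 1). Leaving out libraries there gave -0.40 to 0.76 for Myf5, -1.18 to 0.13 for Myod1, -0.35 to 0.99 for Myog and -0.75 to 1.31 for Myf6. It gave -0.77 to 0.39 for Myf5 and -0.083 to 1.26 for Myog against unmarked controls, and -0.52 to 0.059 for Myf6 in N1OE against marked controls.

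Replicate numbers gave no clear pairing: libraries of equal number in 2 groups had correlations of -0.15 to 0.28 between their deviations from the group means. Cultured control replicates 2 and 3 did correlate best with the N1OE library of their own number (0.084 and 0.28). So did re-isolated control replicate 3 with N1KO replicate 3 (0.15), and N1OE replicate 1 with N1KO replicate 1 (0.080). Pairing is thus not excluded, least of all in culture. With the number as a replicate block Myod1 was 2.93 in N1OE against N1KO (adjusted p = 0.0171), Myf5 -1.77 in re-isolated against cultured control (0.0756) and 0.47 in N1KO against control, and Myf6 -0.11 for the difference between N1OE effects; no other call changed. Median ratio scaling moved the median of all genes by over 0.1 in N1OE against N1KO (by -0.11) and in re-isolated against cultured controls. Depth limits Myf6 in culture, where a library held at most 20 reads.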
